A study of Mus musculus with 24 samples.

Results

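Ferroptosis is an iron-dependent form of cell death. A set of 10 genes tied to its lipids, peroxides and iron was followed in mouse pancreatic cancer cells with p53 switched on or off. The genes were Gpx4, Aifm2, Acsl4, Lpcat3, Sat1, Tfrc, Ncoa4, Fth1, Ftl1 and Slc40a1, taken by gene symbol from each of 3 count tables that list 55401 genes apiece. All 10 were found once in every table, and all 10 passed the filter on low counts in every table, so no gene was dropped. RNA was measured in 24 libraries that form 11 groups.

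All cells were lines of mouse pancreatic ductal adenocarcinoma (PDAC). KPsh cells carry a hairpin against Trp53, the gene of p53, that doxycycline induces, and they were grown for 10 days off doxycycline (n = 3) or on it at 1 µg/ml (n = 3). KPnull cells were engineered with a doxycycline-inducible construct that carried wild-type p53 (p53WT), p53 with the first transactivation domain mutated (TAD1m), p53 with the second mutated (TAD2m), p53 with both mutated (TAD12m), or no cDNA (vector), with n = 2 in each group. Their growth protocol gives doxycycline at 1 µg/ml for 48 hours before harvest, while the text of the series speaks of culture with or without the drug. The last set was made of KPsh cells with Pcyt2 knocked out by CRISPR editing (sgPcyt2), without or with a guide-resistant Pcyt2 cDNA (sgPcyt2+cDNA), each kept for 6 days off or on doxycycline (n = 2 per group). Pcyt2 makes CDP-ethanolamine for phosphatidylethanolamine synthesis. Off doxycycline the hairpin is no longer induced and the drug is also absent, so in every withdrawal comparison p53 and the drug changed together and cannot be told apart. The labels do not say whether replicate libraries came from separate cultures, whether a line is 1 clone, or of which species the introduced p53 is, so the replicate spread behind each p-value may be technical.

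Ferroptosis sets in when polyunsaturated fatty acyl chains of membrane phospholipids are oxidised faster than the peroxides are removed. Acsl4 activates polyunsaturated fatty acids and Lpcat3 inserts them into phospholipids, while Gpx4 reduces the resulting lipid peroxides with glutathione and Aifm2, also called FSP1, regenerates the coenzyme Q that traps lipid radicals. Iron feeds the oxidation: the transferrin receptor Tfrc brings it in, ferritin (heavy chain Fth1, light chain Ftl1) stores it, Ncoa4 delivers ferritin to the lysosome for breakdown, and ferroportin, encoded by Slc40a1, exports it. Sat1 acetylates the polyamines spermidine and spermine and was described as a target of p53 that sensitises human cells to ferroptosis.

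Transcripts of 4 of these genes carry iron-responsive elements, short hairpins that iron regulatory proteins bind when iron is scarce. Binding in the 3′ untranslated region stabilises Tfrc mRNA, whereas binding in the 5′ untranslated region blocks translation of the ferritin and ferroportin mRNAs. The elements are shown because they separate the member whose mRNA level this system is known to set from those whose translation it is known to set, and RNA counts can report only on mRNA levels. GENCODE transcripts on GRCm38, which is mm10, were searched for an unpaired C, 5 bases, the loop CAGTGN and 5 bases that pair with the first 5 (G–T pairs allowed). Each site is written 5′ to 3′ on the strand of its gene, with the 6 bases of the loop in capitals.
Tfrc 3′ UTR, chr16:32631219-32631247, plus strand: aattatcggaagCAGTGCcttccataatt
Tfrc 3′ UTR, chr16:32631598-32631626, plus strand: cattatcgggagCAGTGTcttccataatg
Tfrc 3′ UTR, chr16:32631663-32631691, plus strand: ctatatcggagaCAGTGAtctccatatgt
Tfrc 3′ UTR, chr16:32631710-32631738, plus strand: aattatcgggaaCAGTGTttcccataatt
Fth1 5′ UTR, chr19:9982732-9982760, plus strand: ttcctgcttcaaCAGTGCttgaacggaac
Ftl1 5′ UTR, chr7:45459779-45459807, minus strand: gtcttgcttcaaCAGTGTttgaacggaac
Slc40a1 5′ UTR, chr1:45925465-45925493, minus strand: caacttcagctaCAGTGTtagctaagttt
The 5 bases on either side of the loop are the same in Fth1 and Ftl1 and differ in Slc40a1. Of 22527 coding genes, 0.138% hold such a pattern in a 5′ untranslated region and 0.639% in a 3′ untranslated region, and a match is a description, not a measured binding site.

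RefSeq promoter windows on GRCm38.p6, which run from upstream of a start site to just after it, were matched for 9 of the 10 genes (16 windows). None of them held the p53 decamer motif or the E-box CACGTG on either strand, which 8.36% and 7.15% of the 32851 windows held. Sat1 held the p53 core pair, the looser form made of 2 core quartets 6 bases apart, which 7.22% of all windows held. The 3 successive core quartets, in capitals, reach from 138 to 115 bases before a Sat1 start site. The stretch around them is written 5′ to 3′ on the minus strand.
Sat1 promoter, chrX:155216551-155216600, minus strand: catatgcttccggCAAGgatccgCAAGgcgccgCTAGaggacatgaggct
One Ncoa4 window held the antioxidant response element TGACNNNGC, as did 12.39% of all windows. The Slc40a1 promoter was not analysed here. Such matches say nothing of whether a factor binds.

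Counts summed over all genes of a library ran from 9393966.5 to 12983420.5 for KPsh cells and from 13657592 to 19431249.5 for KPnull cells. In the Pcyt2 set they ran from 13801514.5 to 17127760.5, and over all sets the 10 genes took 0.406% to 0.609% of these sums. Trp53 RNA followed the labels: it stood at 252 to 263 CPM (counts scaled to the library size, as in edgeR) in KPsh cells off doxycycline against 20.3 to 21.8 on it, and at 525 to 686 CPM with any p53 construct against 4.54 and 6.13 with vector. In the Pcyt2 set Trp53 stood at 42.1 and 41.7 CPM in sgPcyt2 cells off doxycycline against 22.7 and 19.2 on it, and at 97.2 and 86.8 CPM against 19.3 and 20.3 with the cDNA. Of 10 ductal and epithelial markers, 6 to 8 exceeded 5 CPM in every library of a table, led by Krt8 and Krt18, but Epcam reached at most 1.38 CPM and Cldn4 at most 0.436 CPM. Krt7 had 205 to 1048 CPM in the KPsh table and 0.19 to 2.40 CPM in the Pcyt2 table, although both are labelled as KPsh cells. Of 10 immune markers 7 stayed under 1 CPM, while Cd14 and Csf1r exceeded 5 CPM in every library; Ptprc and Itgam stayed under 0.6 CPM. Markers of fibroblasts, endothelium, acinar and endocrine cells and erythroid cells reached at most 8.84 CPM (Pdgfra), 8.12 (Cdh5), 4.69 (Cela1) and 0.927 (Alas2). The share of mitochondrial transcripts was 3.31% to 3.51% off doxycycline against 1.86% to 2.00% on it in the Pcyt2 set, and 3.01% and 3.04% with p53WT against 2.36% and 2.24% with vector; its part in the results was not tested.

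Compared per kilobase of transcript, ferritin light chain was the most abundant of the 10 in every group and ferroportin or Aifm2 the least. Group means of Ftl1 were between 1834 and 3444 CPM per kb and those of Fth1 between 410.0 and 887. Gpx4 had 198 to 594 CPM per kb, below Fth1 in every group except the off-dox groups of the Pcyt2 set, where it had 573 against 532 for Fth1 in sgPcyt2 cells and 594 against 410.0 with the cDNA. Orders on this scale rest on the length of the 1 transcript kept per gene, 2057 bases for Fth1, 936 for Ftl1 and 946 for Gpx4. In CPM, Gpx4 was below Fth1 in those 2 groups as well, with 542 against 1094 and 561.5 against 843.4. Tfrc had 26.0 to 167 CPM per kb and Sat1 34.9 to 147. Tfrc exceeded Sat1 on this scale in the on-dox, vector and TAD12m groups and lay below it in the other 6 groups. Acsl4 had 23.4 to 36.9 CPM per kb, Lpcat3 26.2 to 53.4 and Ncoa4 9.18 to 30.4. These 3 were below Tfrc and Sat1 in every group except for Tfrc in the off-dox groups of the Pcyt2 set, where Tfrc had 26.0 in sgPcyt2 cells, under all 3 of them, and 30.5 with the cDNA, under Acsl4 and Lpcat3. Slc40a1 had 2.43 to 18.5 CPM per kb. The most even gene over the 11 groups in CPM was Acsl4, with group means of 123 to 194, and Tfrc and Slc40a1 spread the widest, with group means of 126 to 811 CPM and 8.17 to 62.2 CPM.

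**Figure D1:**
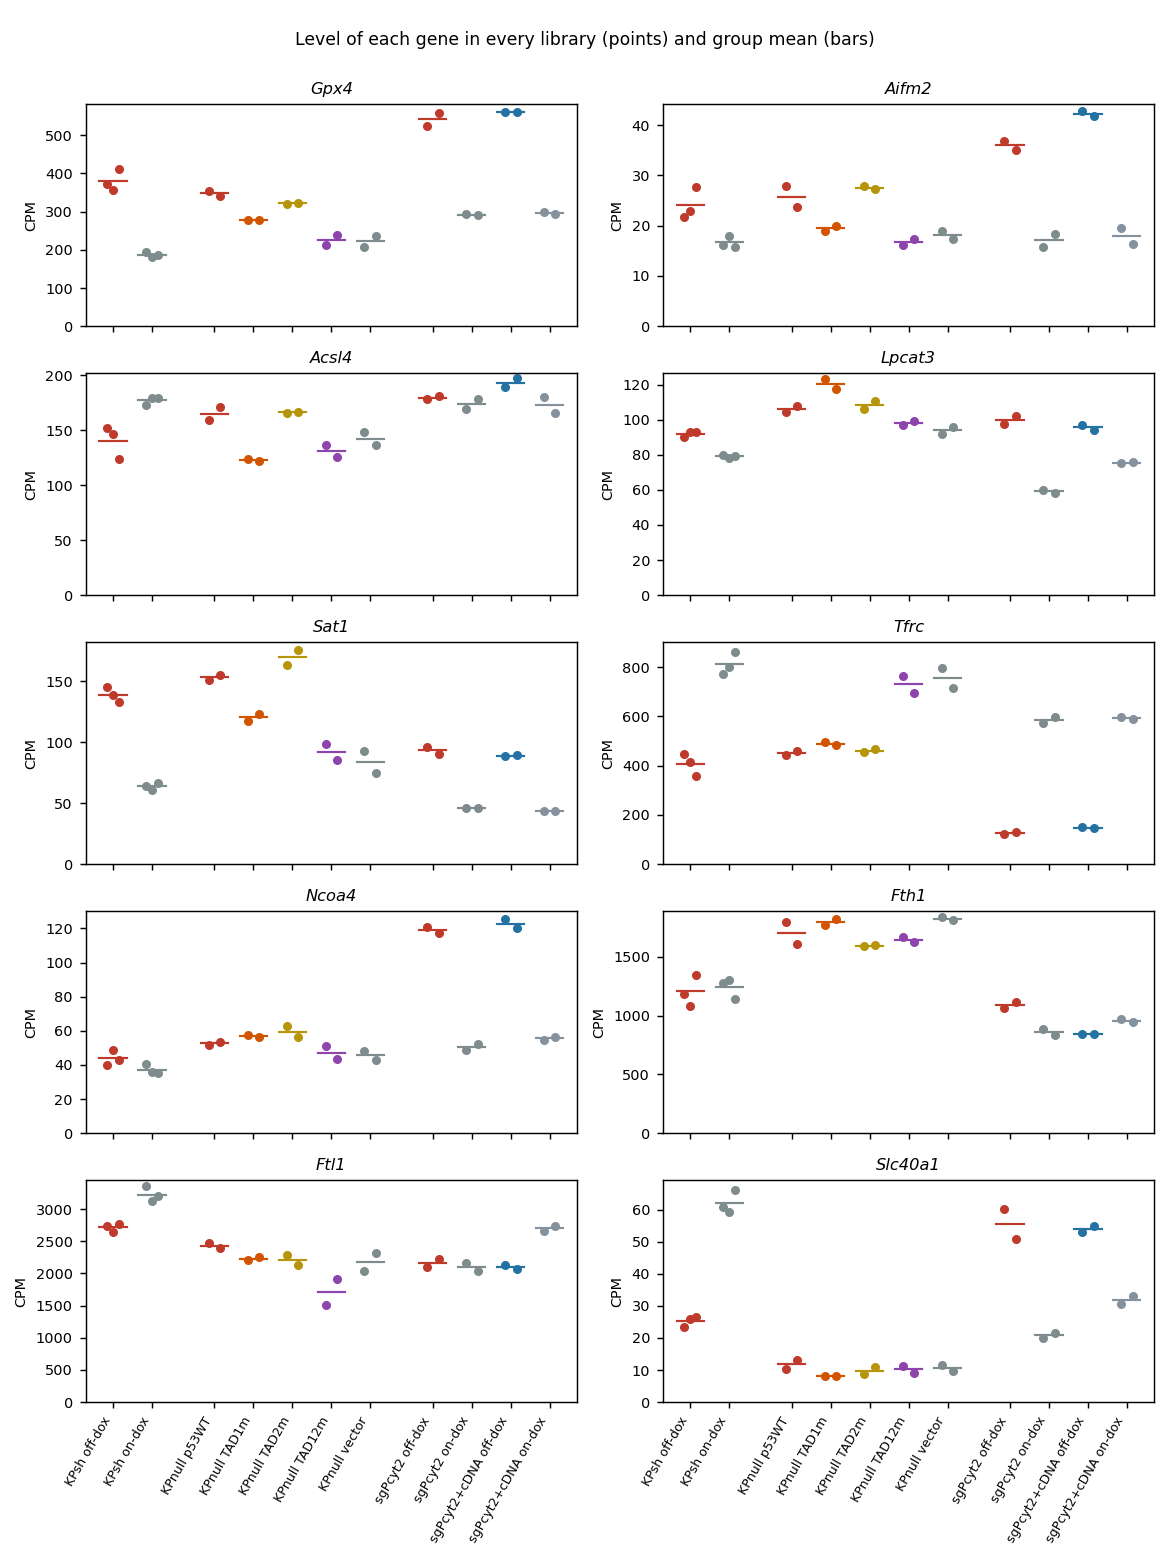
Level of each of the 10 genes, in CPM on a linear axis from 0, in all 24 libraries (points) with the group mean (bar). Gpx4 and Sat1 were higher and Tfrc lower off doxycycline and with p53WT, TAD1m or TAD2m than in the matching on-dox or vector libraries, with no overlap; TAD12m libraries overlapped the vector ones for these 3 genes.

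Restoring p53 in KPsh cells for 10 days asked how the genes respond when p53 returns to cells that carry it. Gpx4, Aifm2, Lpcat3, Sat1 and Ncoa4 rose, while Acsl4, Tfrc, Ftl1 and Slc40a1 fell. These are 9 of 10 genes called at an adjusted p under 0.05 (edgeR's quasi-likelihood test, Benjamini-Hochberg over all genes), where 64.8% of all 13990 genes tested were called. The members' median absolute log2 change was 0.44, against 0.40 over all genes. In bulk RNA, a change in the mix of cells and a change per cell cannot be told apart.

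Among the defence genes, Gpx4 (ENSMUSG00000075706.10, chr10:80053488-80056439, plus strand) had 371, 357 and 411 CPM off doxycycline, against 193, 180 and 187 CPM on it. Every off-dox library was above every on-dox library, a log2 change of 1.02 ± 0.06 (± SE of the fit, adjusted p = 1.49e-12), or 2.03-fold. Aifm2 (ENSMUSG00000020085.15, chr10:61715323-61738647, plus strand) had 21.8, 22.9 and 27.7 CPM off doxycycline, against 16.2, 17.95 and 15.8 CPM on it. It showed no overlap either and rose by 0.55 ± 0.11 (adjusted p = 0.000122), with replicate 3 off doxycycline the highest. On the opposite strand, exons of H2afy2 cover 5.7% of its exon bases, and reads of both strands were counted.

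The lipid genes moved apart. Acsl4 (ENSMUSG00000031278.12, chrX:142317993-142390535, minus strand) had 152, 147 and 124 CPM off doxycycline, against 173, 180 and 180 CPM on it, and fell by 0.33 ± 0.07 on the log2 scale (adjusted p = 0.000159). All 3 off-dox libraries were below all 3 on-dox libraries, the third by most. Lpcat3 (ENSMUSG00000004270.13, chr6:124663027-124704418, plus strand) had 90.2, 92.9 and 93.0 CPM off doxycycline, against 79.9, 78.4 and 79.4 CPM on it, and rose by 0.22 ± 0.06 (adjusted p = 0.00293). Its libraries were tight within each group, and exons of Emg1 on the opposite strand cover 10.2% of its exon bases. Sat1 (ENSMUSG00000025283.15, chrX:155213132-155216449, minus strand), the polyamine acetyltransferase, had 146, 138 and 133 CPM off doxycycline, against 63.8, 60.6 and 66.8 CPM on it. That is 2.18-fold, a log2 change of 1.12 ± 0.06 (adjusted p = 6.88e-13), with no library near the other group.

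On the iron side, RNA of the importer and of the exporter fell, and ferritin RNA moved less. Tfrc (ENSMUSG00000022797.16, chr16:32608920-32632794, plus strand) had 447, 416 and 360 CPM off doxycycline, against 770, 799 and 863 CPM on it. It fell by 0.99 ± 0.07 on the log2 scale (adjusted p = 3.54e-10), to 0.502 of the on-dox level. Slc40a1 (ENSMUSG00000025993.10, chr1:45908068-45925582, minus strand) had 23.5, 25.8 and 26.5 CPM off doxycycline, against 60.8, 59.4 and 66.2 CPM on it. This was the change of largest size among the 10 genes in this comparison, a fall by 1.30 ± 0.08 (adjusted p = 4.47e-12) to 0.406 of the on-dox level. Importer and exporter RNA were thus both lower off doxycycline, with all libraries apart.

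Fth1 (ENSMUSG00000024661.7, chr19:9982704-9985092, plus strand) had 1186, 1085 and 1348 CPM off doxycycline, against 1276, 1307 and 1139 CPM on it. The groups overlapped, and the log2 difference of -0.04 had a 95% interval from -0.19 to 0.11. Ftl1 (ENSMUSG00000050708.16, chr7:45457945-45459839, minus strand) had 2729, 2641 and 2769 CPM off doxycycline, against 3353, 3123 and 3196 CPM on it, and fell by 0.25 ± 0.05 (adjusted p = 0.000236) with no overlap. Exons of Gm10252 on the opposite strand and of Gm22133 on the same strand cover 26.5% and 8.1% of its exon bases, so that part of its count is shared. Ncoa4 (ENSMUSG00000056234.15, chr14:32159865-32179855, plus strand) had 39.9, 48.8 and 43.1 CPM off doxycycline, against 40.4, 36.01 and 35.04 CPM on it, groups that overlapped. Its log2 change of 0.24 ± 0.09 (adjusted p = 0.0185) was the weakest call of the 9, and it was lost with DESeq2 (adjusted p = 0.0657) and without off-dox replicate 2 (0.115), on-dox replicate 2 (0.0808) or on-dox replicate 3 (0.112). Reads given to Ncoa4-ps, its pseudogene, amounted to 11.2% to 19.7% of the pair's counts in these libraries.

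KPnull cells separated the p53 forms, and all 4 forms were set against the same 2 vector libraries, so their values are not independent of one another. Wild-type p53 raised Gpx4, Aifm2, Sat1, Acsl4 and Lpcat3 and lowered Tfrc, which makes 6 of 10 genes called where 50.6% of 15075 genes were called. TAD1m gave 4 higher and 2 lower (36.4% of all genes called), TAD2m 6 higher and 2 lower (49.1%), and TAD12m none (3.85%). In the TAD12m comparison, edgeR's test left 2 members at an unadjusted p under 0.05, Ftl1 and Fth1, and DESeq2 called 1, Ftl1.

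Gpx4 had 354 and 341 CPM with p53WT, 279 and 277 with TAD1m, 320 and 323 with TAD2m and 212 and 240 with TAD12m, against 209 and 235 CPM with vector. Except with TAD12m, both libraries of each form were above both vector libraries, and the log2 changes over vector were 0.65 ± 0.07 (adjusted p = 5.37e-07) for p53WT, 0.33 ± 0.07 (0.00109) for TAD1m and 0.54 ± 0.07 (4.94e-06) for TAD2m. With TAD12m the difference was 0.03, with a 95% interval from -0.12 to 0.17. Aifm2 had 27.8 and 23.7 CPM with p53WT, 18.9 and 19.98 with TAD1m, 27.9 and 27.3 with TAD2m and 16.2 and 17.3 with TAD12m, against 18.9 and 17.4 CPM with vector. It rose with p53WT (0.50 ± 0.10, adjusted p = 0.000421) and TAD2m (0.60 ± 0.10, adjusted p = 9.07e-05), and the TAD1m libraries overlapped those with vector.

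Sat1 had 151 and 156 CPM with p53WT, 117 and 123 with TAD1m, 164 and 175 with TAD2m and 98.2 and 85.4 with TAD12m, against 93.3 and 75.1 CPM with vector. The rise was 0.86 ± 0.09 for p53WT (adjusted p = 4.95e-06), 0.51 ± 0.09 for TAD1m (0.000812) and 1.01 ± 0.09 for TAD2m (1.18e-06), and TAD12m overlapped vector. Tfrc had 443 and 458 CPM with p53WT, 496 and 483 with TAD1m, 454 and 466 with TAD2m and 766 and 695 with TAD12m, against 797 and 716 CPM with vector. It fell by 0.75 ± 0.06 with p53WT (adjusted p = 3.99e-08), by 0.63 ± 0.06 with TAD1m (6.62e-07) and by 0.72 ± 0.06 with TAD2m (6.86e-08). The 6 libraries of these forms lay far below the 4 of TAD12m and vector.

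The lipid-loading enzymes Acsl4 and Lpcat3 were both called against vector with p53WT, TAD1m and TAD2m and with TAD12m neither was, and with TAD1m their directions were opposite. Acsl4 had 159 and 171 CPM with p53WT, 124 and 122 with TAD1m, 166 and 167 with TAD2m and 136 and 126 with TAD12m, against 148 and 137 CPM with vector. TAD1m thus put Acsl4 below vector (log2 change -0.22 ± 0.06, adjusted p = 0.0126), where p53WT (0.21 ± 0.06, adjusted p = 0.00932) and TAD2m (0.22 ± 0.06, adjusted p = 0.00714) put it above. Each of these 3 calls was lost in some fits that left out 1 library and so kept 1 library in a group. Without vector replicate 2 the log2 change was 0.16 for p53WT and 0.17 for TAD2m, and without p53WT replicate 2 it was 0.16 for p53WT. For TAD1m it was -0.16 without vector replicate 1, and -0.23 or -0.21 without TAD1m replicate 1 or 2. Lpcat3 had 104 and 108 CPM with p53WT, 123 and 118 with TAD1m, 106 and 110 with TAD2m and 97.2 and 99.1 with TAD12m, against 92.0 and 95.9 CPM with vector. Its highest level was with TAD1m (0.36 ± 0.06 over vector, adjusted p = 0.000145), and the smaller rises with p53WT (0.17 ± 0.06, adjusted p = 0.0215) and TAD2m (0.20 ± 0.06, adjusted p = 0.00948) were lost without vector replicate 1 (adjusted p = 0.134 and 0.0805) and, in each case, without replicate 2 of the form (0.12 and 0.096). The p53WT call was also lost when the other KPnull groups were left out of the fit (adjusted p = 0.0572).

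Ncoa4, the ferritins and Slc40a1 gave few calls in KPnull cells. Ncoa4 had 51.8 and 53.4 CPM with p53WT, 57.5 and 56.3 with TAD1m, 62.6 and 56.2 with TAD2m and 51.2 and 43.2 with TAD12m, against 48.2 and 43.1 CPM with vector. It was called with TAD1m (0.32 ± 0.09, adjusted p = 0.00838, lost without TAD1m replicate 1 at 0.0699 and without vector replicate 2 at 0.0775) and TAD2m (0.38 ± 0.09, adjusted p = 0.00165), and not with p53WT (0.20 ± 0.09, adjusted p = 0.063). Fth1 had 1798 and 1612 CPM with p53WT, 1768 and 1821 with TAD1m, 1592 and 1597 with TAD2m and 1670 and 1624 with TAD12m, against 1837 and 1811 CPM with vector. Only TAD2m passed the test, a fall by 0.19 ± 0.06 (adjusted p = 0.00889). Without TAD2m replicate 1 or 2, which keeps 1 library in that group, the call was lost at log2 changes of -0.192 and -0.197. Ftl1 had 2468 and 2395 CPM with p53WT, 2213 and 2247 with TAD1m, 2287 and 2134 with TAD2m and 1513 and 1919 with TAD12m, against 2037 and 2318 CPM with vector, with no form called. The 2 TAD12m libraries differed from each other more than any other replicate pair did for this gene, and the first of them was the lowest of all 24. Slc40a1 lay between 8.15 and 13.3 CPM in the 10 KPnull libraries, and no form was called against vector. With TAD1m it had 8.15 and 8.18 CPM, against 11.5 and 9.79 CPM with vector, without overlap, and the log2 difference of -0.39 ± 0.16 missed the threshold (adjusted p = 0.0611). It was called in 3 of 11 alternatives: with upper-quartile scaling (adjusted p = 0.0411), without the filter on low counts (0.031) and without vector replicate 2 (0.0377).

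**Figure D2:**
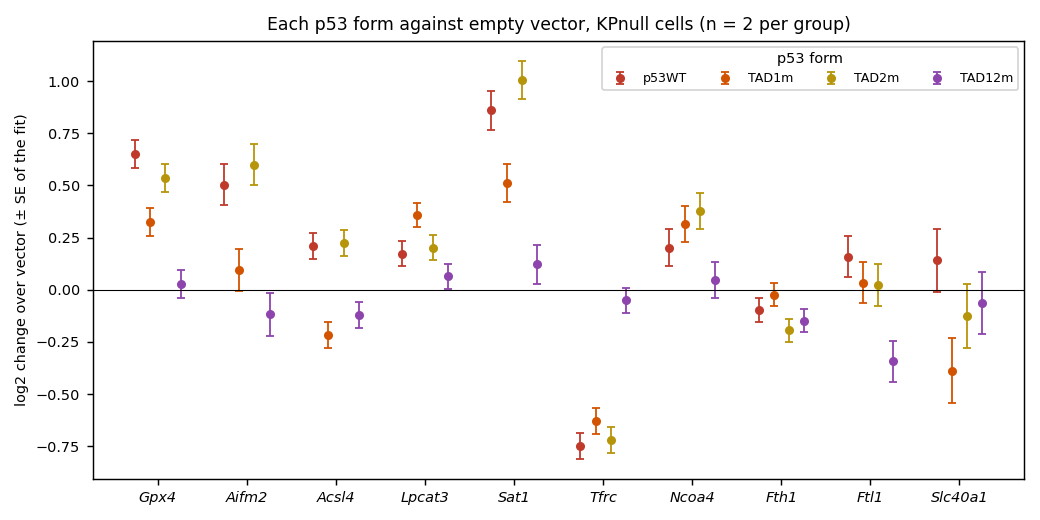
Log2 change of each gene over vector in KPnull cells (vertical axis, point with ± SE of the fit) for p53WT, TAD1m, TAD2m and TAD12m, n = 2 libraries per group, all against the same 2 vector libraries (line at 0). Tfrc lies between -0.63 and -0.75 for p53WT, TAD1m and TAD2m and at -0.05 for TAD12m.

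Set directly against p53WT, the mutants fell into different places. TAD1m had 6 of 10 genes called, 1 higher and 5 lower (39.1% of all genes called), and TAD12m likewise 6, 1 higher and 5 lower (51.2%). TAD2m had none, where 0.285% of all genes were called; no member reached an unadjusted p under 0.05 with edgeR, where the lowest was 0.0585, and DESeq2 called 0. For TAD2m against p53WT the 95% interval of the log2 difference was -0.25 to 0.03 for Gpx4, -0.05 to 0.34 for Sat1 and -0.10 to 0.16 for Tfrc.

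TAD1m was below p53WT for Gpx4 (-0.32 ± 0.07, adjusted p = 0.000956), Acsl4 (-0.43 ± 0.06, adjusted p = 4.36e-05), Aifm2 (-0.41 ± 0.10, adjusted p = 0.0033), Sat1 (-0.35 ± 0.09, adjusted p = 0.00819) and Slc40a1 (-0.53 ± 0.16, adjusted p = 0.0126), and above it for Lpcat3 (0.19 ± 0.06, adjusted p = 0.0188). Gpx4 and Acsl4 kept their call without any 1 library. Leaving out any 1 library left 3 or 4 members called, and 3 without TAD1m replicate 1, where Lpcat3, Sat1 and Slc40a1 had an adjusted p of 0.196, 0.0649 and 0.0692. Aifm2 was lost without p53WT replicate 1 (adjusted p = 0.0758), Sat1 without p53WT replicate 2 (0.0561), Lpcat3 with DESeq2 (0.0766), without TAD1m replicate 2 (0.0508) and without p53WT replicate 1 (0.131), and Slc40a1 without TAD1m replicate 2 (0.0609) and without p53WT replicate 2 (0.169). For Tfrc the TAD1m difference from p53WT was 0.12 ± 0.06 and not called (adjusted p = 0.139).

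TAD12m was below p53WT for Gpx4 (-0.62 ± 0.07, adjusted p = 8.59e-07), Aifm2 (-0.62 ± 0.10, adjusted p = 6.04e-05), Sat1 (-0.74 ± 0.09, adjusted p = 1.9e-05), Acsl4 (-0.33 ± 0.06, adjusted p = 0.000273) and Ftl1 (-0.50 ± 0.10, adjusted p = 0.00184). Tfrc was higher with TAD12m by 0.70 ± 0.06 (adjusted p = 9.56e-08), which is 1.62-fold. Cdkn1a, the p21 gene and a reporter of p53 activity, had 401 and 358 CPM with p53WT, 54.4 and 52.5 with TAD1m, 299 and 290 with TAD2m and 32.6 and 32.7 with TAD12m, against 38.7 and 47.5 CPM with vector. Mdm2, the ubiquitin ligase of p53 and another of its targets, had 267 and 272 CPM with p53WT, 82.6 and 76.9 with TAD1m, 150 and 156 with TAD2m and 56.6 and 50.9 with TAD12m, against 56.4 and 56.6 CPM with vector. The TAD1m libraries were thus low for both Tfrc and Cdkn1a, whereas the p53WT and TAD2m libraries were low for Tfrc and high for Cdkn1a.

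In Pcyt2-edited KPsh cells the iron genes Tfrc, Ncoa4 and Slc40a1 changed along with Gpx4 and Aifm2, and Tfrc showed the largest change of any of the 10 genes in the 13 comparisons. Off doxycycline for 6 days, sgPcyt2 cells had 8 of 10 genes called, 7 higher and 1 lower, where 76.3% of 14916 genes were called. With the Pcyt2 cDNA all 10 were called, 7 higher and 3 lower, where 73.5% of all genes were called. The members' median absolute log2 change was 0.95 in sgPcyt2 cells and 0.83 with the cDNA, against 0.63 and 0.58 over all genes.

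Tfrc changed the most of the 10 genes in both. It had 124 and 129 CPM in sgPcyt2 cells off doxycycline, against 574 and 598 CPM on it, and 150 and 146 CPM in sgPcyt2+cDNA cells off doxycycline, against 597 and 590 CPM on it. That is a fall by 2.21 ± 0.04 (adjusted p = 3.04e-39), to 0.216 of the on-dox level, in sgPcyt2 cells and by 2.00 ± 0.04 (adjusted p = 8.32e-38), to 0.249, with the cDNA. Ncoa4, the ferritin receptor of autophagy, had 121 and 117 CPM in sgPcyt2 cells off doxycycline, against 48.6 and 52.5 CPM on it, and 126 and 120 CPM off against 54.5 and 56.6 CPM on doxycycline with the cDNA. It rose by 1.24 ± 0.06 (adjusted p = 1.09e-24) and by 1.14 ± 0.05 (adjusted p = 1.13e-23), with every off-dox library above every on-dox library; Ncoa4-ps took 7.47% to 11.1% of the pair's counts.

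Slc40a1 had 60.1 and 51.0 CPM in sgPcyt2 cells off doxycycline, against 20.1 and 21.5 CPM on it, and 52.96 and 54.8 CPM off against 30.7 and 33.2 CPM on doxycycline with the cDNA. It rose by 1.42 ± 0.08 (adjusted p = 1.14e-20) and by 0.75 ± 0.07 (adjusted p = 1.88e-12), the opposite direction to KPsh cells after 10 days. The off-dox libraries of the Pcyt2 set were near the on-dox libraries of the KPsh set, and the reverse, in tables that were normalised separately.

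Fth1 moved in opposite directions without and with the Pcyt2 cDNA. It had 1068 and 1120 CPM in sgPcyt2 cells off doxycycline, against 884 and 832 CPM on it, a rise by 0.35 ± 0.04 (adjusted p = 3.28e-11), and 847 and 840 CPM off against 970 and 946 CPM on doxycycline with the cDNA, a fall by 0.18 ± 0.04 (adjusted p = 4.31e-05). With upper-quartile scaling, which moves the median of all genes to 0.12 and 0.13 in these 2 comparisons, the Fth1 fall with the cDNA was -0.07 and no longer called (adjusted p = 0.0926), while the TMM scaling used here left those medians at 0.02 in both. Ftl1 had 2092 and 2217 CPM in sgPcyt2 cells off doxycycline, against 2168 and 2038 CPM on it, groups that overlapped. With the cDNA it had 2123 and 2062 CPM off doxycycline, against 2661 and 2735 CPM on it, a fall by 0.37 ± 0.04 (adjusted p = 5.61e-11).

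Gpx4, Aifm2 and Sat1 rose in both kinds of cell. Gpx4 had 524 and 560 CPM in sgPcyt2 cells off doxycycline, against 294 and 291 CPM on it, and 562 and 561 CPM off against 300 and 295 CPM on doxycycline with the cDNA, which is 1.86-fold (adjusted p = 9.87e-25) and 1.89-fold (adjusted p = 3.22e-25). Aifm2 had 36.9 and 35.1 CPM off doxycycline, against 15.7 and 18.4 CPM on it, in sgPcyt2 cells, and 42.8 and 41.8 CPM off against 19.5 and 16.3 CPM on doxycycline with the cDNA, or 2.11-fold (adjusted p = 1.3e-14) and 2.38-fold (adjusted p = 2.39e-17). Sat1 had 96.5 and 90.4 CPM off doxycycline, against 46.1 and 46.5 CPM on it, in sgPcyt2 cells, and 88.5 and 89.4 CPM off against 44.0 and 44.0 CPM on doxycycline with the cDNA, 2.02-fold in both (adjusted p = 1.29e-20 and 1.8e-20). No off-dox library of these 3 genes overlapped an on-dox library.

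Lpcat3 had 97.4 and 102 CPM in sgPcyt2 cells off doxycycline, against 59.96 and 58.3 CPM on it, and 96.8 and 94.3 CPM off against 75.1 and 75.7 CPM on doxycycline with the cDNA. The on-dox levels lay further apart between both kinds of cell than the off-dox levels, and the rise was 0.75 ± 0.05 (adjusted p = 5.4e-17) in sgPcyt2 cells and 0.34 ± 0.05 (adjusted p = 1.38e-07) with the cDNA. Acsl4 had 178 and 181 CPM in sgPcyt2 cells off doxycycline, against 169 and 178 CPM on it, with a log2 difference of 0.05 and a 95% interval from -0.04 to 0.14. With the cDNA it had 189 and 198 CPM off doxycycline, against 181 and 166 CPM on it, a rise by 0.16 ± 0.04 (adjusted p = 0.00133) that was lost without on-dox replicate 2 of these cells (adjusted p = 0.134).

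**Figure D3:**
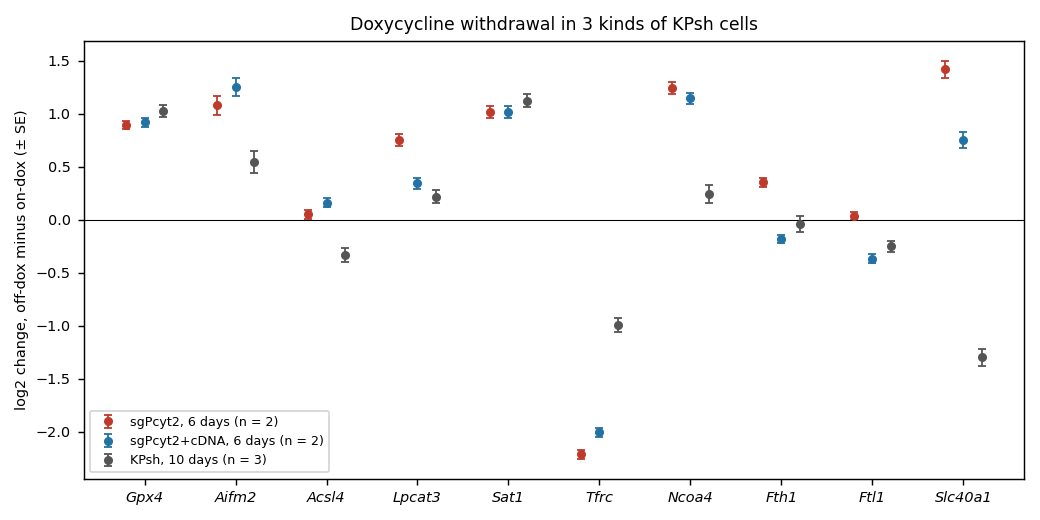
Log2 change on doxycycline withdrawal (off-dox minus on-dox, point with ± SE of the fit) of each gene in sgPcyt2 cells after 6 days (n = 2), sgPcyt2+cDNA cells after 6 days (n = 2) and KPsh cells after 10 days (n = 3). Gpx4 and Sat1 lie between 0.89 and 1.12 in all 3, whereas Slc40a1 lies at 1.42, 0.75 and -1.30.

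Comparing sgPcyt2 with sgPcyt2+cDNA cells set Pcyt2-edited cells against cells with far more Pcyt2 RNA than unedited ones. Pcyt2 had 17.7 to 28.6 CPM in sgPcyt2 cells and 2193 to 2636 CPM with the cDNA, whereas the unedited KPsh libraries had 83.4 to 114 CPM in a table normalised separately. Loss of Pcyt2 and its excess cannot be told apart in this comparison. On doxycycline 4 of 10 were called, all lower in sgPcyt2 cells, where 18.4% of all genes were called. Lpcat3 was lower by 0.35 ± 0.06 (adjusted p = 4.05e-06), Ftl1 by 0.36 ± 0.04 (adjusted p = 1.86e-09) and Slc40a1 by 0.62 ± 0.09 (adjusted p = 2.94e-07). Fth1 was lower by 0.16 ± 0.04 (adjusted p = 0.0019), a call lost without sgPcyt2 on-dox replicate 2 (0.0687) or sgPcyt2+cDNA on-dox replicate 1 (0.0551). Off doxycycline 3 were called, 1 higher and 2 lower, where 33.1% of all genes were called. Fth1 was higher by 0.38 ± 0.04 (adjusted p = 5.04e-11), Tfrc lower by 0.23 ± 0.04 (adjusted p = 5.3e-05) and Aifm2 lower by 0.23 ± 0.08 (adjusted p = 0.0186). The Aifm2 call was lost with DESeq2 (0.192), without sgPcyt2 off-dox replicate 2 (0.0905) and without sgPcyt2+cDNA off-dox replicate 1 (0.0919). Acsl4 had 178 and 181 CPM in sgPcyt2 cells, against 189 and 198 CPM with the cDNA, and its log2 difference of -0.11 ± 0.04 missed the threshold (adjusted p = 0.0581). It was called in 5 of 11 alternatives: without the filter on low counts (adjusted p = 0.0266), with upper-quartile scaling (0.0343), on the compared groups only (0.0435), without sgPcyt2 off-dox replicate 2 (0.0371) and without sgPcyt2+cDNA off-dox replicate 1 (0.0493).

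The interaction, the withdrawal change in sgPcyt2 cells minus that with the cDNA, was called for 5 of 10 genes, 4 higher and 1 lower, where 25.2% of all genes were called. Slc40a1 differed by 0.67 ± 0.11 (adjusted p = 5.69e-06), Fth1 by 0.53 ± 0.05 (adjusted p = 6.83e-11), Lpcat3 by 0.41 ± 0.08 (adjusted p = 3.19e-05) and Ftl1 by 0.40 ± 0.06 (adjusted p = 3.23e-07), all more upward in sgPcyt2 cells, and Tfrc by -0.21 ± 0.06 (adjusted p = 0.00528). For Slc40a1, Lpcat3 and Ftl1 the difference lay in the on-dox levels, which were called between the 2 kinds of cell while the off-dox levels were not. Tfrc was called off doxycycline and not on it, and Fth1 was called in both, in opposite directions. The interaction was not called for Gpx4 (95% interval -0.14 to 0.09), Sat1 (-0.17 to 0.17), Aifm2 (-0.43 to 0.09), Acsl4 (-0.24 to 0.02) or Ncoa4 (-0.06 to 0.25). Off-dox Trp53 was 42.1 and 41.7 CPM in sgPcyt2 cells, against 97.2 and 86.8 CPM with the cDNA, and Cdkn1a 291 and 302 CPM against 383 and 392 CPM; the part of this difference in the 5 interactions was not tested.

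**Figure D4:**
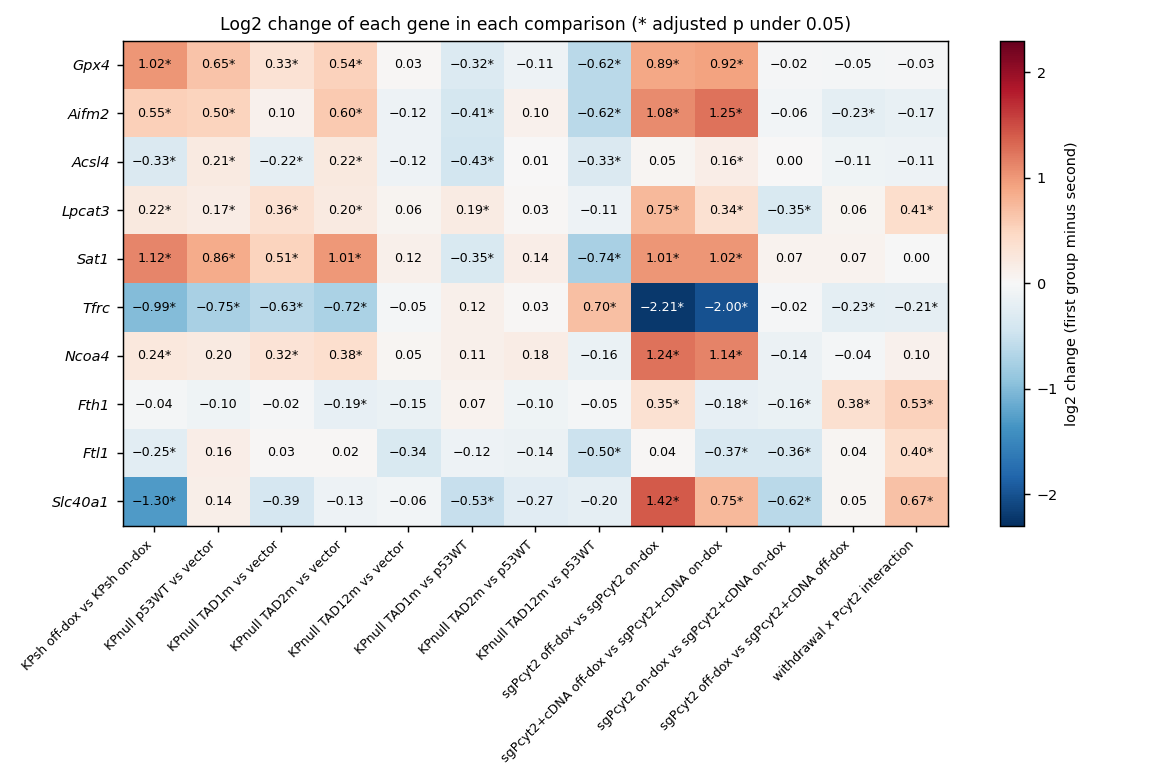
Log2 change (first named group minus second) of each gene in the 13 comparisons, coloured from blue (lower) to red (higher), with an asterisk at an adjusted p under 0.05. Tfrc is the gene with the deepest blue, at -2.21 and -2.00 in the Pcyt2 set, and the TAD12m against vector and TAD2m against p53WT columns hold no asterisk.

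The ratio of Tfrc to Fth1, each per kilobase, sets RNA for iron uptake against RNA for iron storage within a library. Its level rests on the kept transcript lengths, 4853 and 2057 bases, which were the same for every library. It was 0.160, 0.163 and 0.113 in KPsh cells off doxycycline, against 0.256, 0.259 and 0.321 on it. In KPnull cells it was 0.104 and 0.120 with p53WT, 0.119 and 0.113 with TAD1m, 0.121 and 0.124 with TAD2m and 0.194 and 0.181 with TAD12m, against 0.184 and 0.168 with vector. It was lowest in sgPcyt2 cells off doxycycline, 0.0492 and 0.0487, against 0.275 and 0.305 on it, and was 0.0749 and 0.0738 in sgPcyt2+cDNA cells off doxycycline, against 0.261 and 0.264 on it. In every set the libraries with p53WT, TAD1m or TAD2m, or off doxycycline, lay below all libraries of the matching vector or on-dox group, and TAD12m did not. Since Fth1 changed by at most 0.35 on the log2 scale between those groups, the ratio mostly followed Tfrc.

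**Figure D5:**
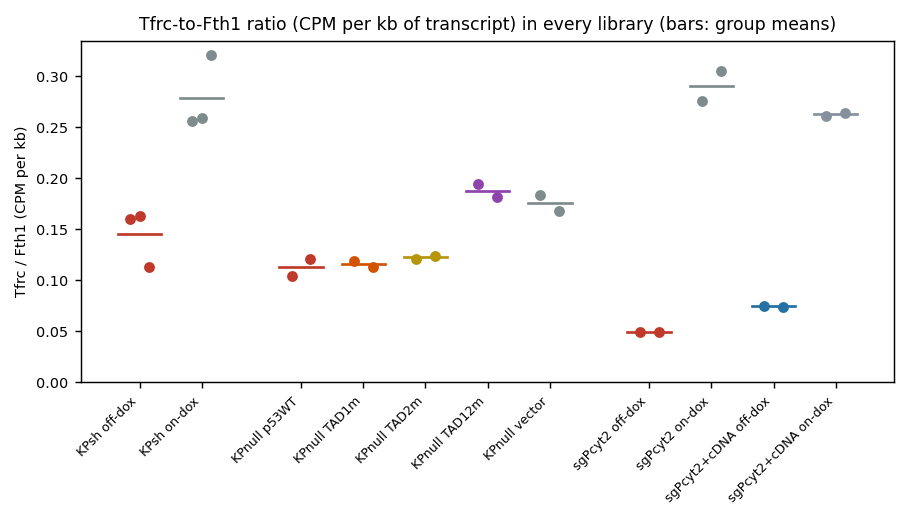
Ratio of Tfrc to Fth1, both in CPM per kb of transcript, in all 24 libraries (points, linear axis from 0) with group means (bars). The off-dox libraries of the Pcyt2 set lie between 0.0487 and 0.0749 and the on-dox libraries of both KPsh-derived sets between 0.256 and 0.321.

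Other genes of the same pathways were counted from 3 lists. Of 30 genes of iron handling, 11 rose and 8 fell among 25 tested in KPsh cells off doxycycline, 9 rose and 8 fell among 25 with p53WT, 9 rose and 8 fell among 23 in sgPcyt2 cells off doxycycline, and 11 rose and 10 fell among 23 with the cDNA. The shares called were 76% in KPsh cells, where 64.8% of all genes were called, 68% with p53WT (50.6% of all genes), 73.9% in sgPcyt2 cells (76.3%) and 91.3% with the cDNA (73.5%). Against vector, TAD1m had 5 higher and 8 lower of 25 (52%, against 36.4% of all genes), TAD2m 8 higher and 6 lower (56%, against 49.1%) and TAD12m 2 higher and 1 lower (12%, against 3.85%). Ceruloplasmin (Cp), the ferroxidase that works with ferroportin, rose by 1.64 ± 0.15 (adjusted p = 2.88e-09) in KPsh cells off doxycycline, by 2.33 ± 0.07 (adjusted p = 2.54e-13) with p53WT and by 4.44 ± 0.17 (adjusted p = 2.61e-27) in sgPcyt2 cells off doxycycline. In sgPcyt2+cDNA cells off doxycycline Cp rose by 1.90 ± 0.24 (adjusted p = 2.09e-09). Against vector it also rose with TAD2m (2.54 ± 0.07, adjusted p = 1.28e-13), TAD1m (0.66 ± 0.07, 1.77e-06) and TAD12m (0.38 ± 0.07, 0.00437). Cp averaged 342.6 CPM over the KPnull libraries, 13.55 over the KPsh libraries and 9.38 over the Pcyt2 set. Off doxycycline it was higher in sgPcyt2 than in sgPcyt2+cDNA cells by 2.65 ± 0.13 on the log2 scale. Its mean in the Pcyt2 set thus rests mostly on the sgPcyt2 off-dox libraries, and both withdrawal rises there start from low levels. Transferrin (Trf), the plasma carrier that Tfrc binds, rose by 1.87 ± 0.08 (adjusted p = 3.65e-15) in KPsh cells and by 1.82 ± 0.06 (adjusted p = 1.06e-30) in sgPcyt2 cells off doxycycline. In sgPcyt2+cDNA cells off doxycycline Trf rose by 1.97 ± 0.08 (adjusted p = 1.26e-26). Hmox1, which frees iron from haem, rose by 1.42 ± 0.07 (adjusted p = 1.04e-10) with p53WT. It also rose over vector with TAD2m (1.22 ± 0.07, adjusted p = 7.13e-10) and TAD1m (0.79 ± 0.07, 2.83e-07), and was not among the genes called with TAD12m.

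Of 22 genes of lipid remodelling, 6 rose and 7 fell among 16 tested in KPsh cells off doxycycline, 3 rose and 7 fell among 17 with p53WT, 6 rose and 7 fell among 15 in sgPcyt2 cells off doxycycline, and 6 rose and 8 fell with the cDNA. The shares called were 81.2% in KPsh cells (64.8% of all genes), 58.8% with p53WT (50.6%), 86.7% in sgPcyt2 cells (76.3%) and 93.3% with the cDNA (73.5%). TAD12m against vector had 0 of 17 called with edgeR's test, where 3.85% of all genes were called. Plin2, a coat protein of lipid droplets, rose by 2.09 ± 0.06 (adjusted p = 2.32e-18) in KPsh cells off doxycycline and by 1.88 ± 0.06 (adjusted p = 2.48e-13) with p53WT. It also rose over vector with TAD2m (1.93 ± 0.06, adjusted p = 1.87e-13) and TAD1m (0.53 ± 0.06, 2.2e-06). In sgPcyt2+cDNA cells off doxycycline Plin2 rose by 1.33 ± 0.04 (adjusted p = 4.56e-30). The desaturases Fads2 and Fads1, which make polyunsaturated fatty acids, fell by 3.003 ± 0.08 (adjusted p = 2.81e-33) and 2.74 ± 0.07 (adjusted p = 3.54e-34) in sgPcyt2 cells off doxycycline. With the cDNA they fell by 4.05 ± 0.08 (adjusted p = 1.8e-36) and 3.19 ± 0.07 (adjusted p = 2.02e-36). Acsl3, which activates monounsaturated fatty acids, rose by 1.48 ± 0.06 (adjusted p = 2.2e-26) in sgPcyt2 cells off doxycycline, and its interaction was 1.16 ± 0.08 (adjusted p = 3.13e-15).

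Of 20 genes of peroxide defence, 5 rose and 8 fell among 19 tested in KPsh cells off doxycycline, 4 rose and 7 fell with p53WT, 8 rose and 7 fell in sgPcyt2 cells off doxycycline, and 7 rose and 9 fell with the cDNA. The shares called were 68.4% in KPsh cells (64.8% of all genes), 57.9% with p53WT (50.6%), 78.9% in sgPcyt2 cells (76.3%) and 84.2% with the cDNA (73.5%). TAD12m against vector had 0 higher and 2 lower, or 10.5% against 3.85% of all genes. The cystine carrier Slc7a11, whose repression by p53 was described in human cells as a route to ferroptosis, fell by 1.80 ± 0.07 (adjusted p = 1.55e-15) in KPsh cells off doxycycline. In sgPcyt2 cells off doxycycline it rose by 2.73 ± 0.08 (adjusted p = 1.78e-14), and its interaction was 2.00 ± 0.11 (adjusted p = 1.5e-09). The interaction was smaller than this rise, so the log2 change of Slc7a11 with the cDNA was also upward. In KPnull cells it was below vector with TAD2m (-0.66 ± 0.06, adjusted p = 3.01e-07) and TAD12m (-0.34 ± 0.06, 0.00469). Gclc, the catalytic subunit of the enzyme that starts glutathione synthesis, rose by 0.74 ± 0.06 (adjusted p = 2.72e-08) with p53WT and by 2.95 ± 0.05 (adjusted p = 1.32e-36) in sgPcyt2 cells off doxycycline. In sgPcyt2+cDNA cells off doxycycline Gclc rose by 2.05 ± 0.05 (adjusted p = 1.79e-31).

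Across the means of the 11 groups, as log2(CPM + 1) centred within each table, genes were ranked by Pearson's r with each member among 10026 genes, as a description over points that share libraries and controls. Gpx4 and Sat1 had the highest r of any pair of members, 0.979, and Tfrc and Ncoa4 the lowest, -0.967. The genes most like Tfrc were Gspt1 (0.9998), Gm42890 (0.9991) and Kpna3 (0.9985), and those most like Gpx4 were Ak1 (0.997), Commd4 (0.9969) and Fbxw9 (0.9965). Ip6k2 (0.9954) was nearest to Sat1, Jmy (0.9945) to Ncoa4, F11r (0.9932) to Aifm2, Avpi1 (0.9847) to Lpcat3, Tor1aip2 (0.963) to Slc40a1, Map3k14 (0.9507) to Acsl4 and Cln6 (0.9382) to Fth1. Ftl1 was nearest to Gm22133 (0.9889) and Gm10252 (0.9681), the 2 genes whose exons overlap its own.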

How the data were processed

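Per the labels' protocols, TRIzol RNA went into a stranded mRNA library kit. The values are expected counts per gene, in steps of 0.5, deposited by the authors without normalization. Per the file headers, HOMER counted reads of both strands over exons of GENCODE vM25 and kept 1 transcript per gene. Per the submitters' processing notes, STAR 2.6.1c and HOMER were used on mm10. Where 2 genes overlap, their reads cannot be told apart, and for Sat1 the kept transcript differed between tables (1151 or 1259 bases).

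Columns were matched to samples by name. The off-dox KPsh columns name only a day and the sgPcyt2+cDNA columns name wild-type Pcyt2, so both were matched by elimination. Counts were rounded to whole numbers, a change of at most 0.0533% of the counts summed over all genes of a library. Each table was filtered with filterByExpr, scaled by TMM and tested by robust quasi-likelihood fits in R 4.3.3 (edgeR 4.0.16, limma 3.58.1), all groups of a table sharing 1 estimate of the spread. Benjamini-Hochberg adjustment ran over every gene of a comparison, and calls needed an adjusted p under 0.05. CPM were taken on the TMM-adjusted library size. The procedure was tested on simulated data. Replicate counts within each group differed beyond sampling noise, and each library was treated as 1 sample. That spread does not show whether the libraries came from separate cultures. Intervals are 95% intervals of the fit.

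The rule for named genes takes the 10 members everywhere, Trp53, Cdkn1a, Mdm2 and Pcyt2 as checks, and up to 3 called genes of each wider list with the largest changes at a mean level of 5 CPM or more. Genes most like a member were ranked among genes with a mean of at least 5 CPM in each table. The members and lists were chosen with earlier results of these data known. Alternatives were DESeq2 1.42.0, upper-quartile scaling, no filter, summing pseudogene rows, fits on the compared groups only, a replicate block and leaving out each library. A block with crossed replicate numbers was added after seeing the data.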

Additional observations from a re-analysis of the deposited data

Results flagged for a closer look

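Withdrawal of doxycycline moved 5 of the 10 genes differently in sgPcyt2 and sgPcyt2+cDNA cells by a test of the difference itself, with log2 differences of 0.67 for Slc40a1, 0.53 for Fth1, 0.41 for Lpcat3, 0.40 for Ftl1 and -0.21 for Tfrc (edgeR's quasi-likelihood interaction, n = 2 libraries per group, called in every alternative run).

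Slc40a1 moved in opposite directions in the 2 kinds of experiment, with no overlap of libraries in any: 1.42 in sgPcyt2 cells and 0.75 in sgPcyt2+cDNA cells after 6 days off doxycycline, and -1.30 in KPsh cells after 10 days. Acsl4 did so on a smaller scale only with the cDNA, 0.16 in sgPcyt2+cDNA cells and -0.33 in KPsh cells. Without on-dox replicate 2 of the sgPcyt2+cDNA cells that rise was 0.09. In sgPcyt2 cells the Acsl4 libraries overlapped, with a log2 difference of 0.05. These differences between sets were not tested, since the tables share no group. The days off doxycycline, the editing, the Krt7 and Muc1 levels and the level of Trp53 RNA differed along with the set. Off-dox Trp53 averaged 258 CPM in KPsh cells, 41.9 in sgPcyt2 cells and 92.0 in sgPcyt2+cDNA cells. Muc1 had 11.05 to 16.8 CPM in the KPsh set and 0.441 to 2.8 CPM in the Pcyt2 set. The part of these differences in the result was not tested.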

How the results depend on the processing

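The 10 genes in 13 comparisons gave 130 results, of which 71 were called, and these were recomputed under 1510 alternatives in all. In 1414 the direction and the side of the threshold were kept, 36 lost a call, 24 gained one and 36 changed sign, none of these among called results; 55 called results kept direction and call under every alternative run. The cause of each change below was not tested. Leaving out 1 library of the KPnull or Pcyt2 set kept 1 library in its group. The count of called members in TAD12m against vector was 1 with DESeq2 and 1 without the filter, where it was 0, and 0 to 1 when 1 library was left out. That gene was Ftl1, with a log2 change of -0.53 (adjusted p = 0.000177) without TAD12m replicate 2. The count in TAD1m against p53WT was 3 to 4, where it was 6, when 1 library was left out.

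The 25 results that changed sign were all uncalled, with log2 changes of at most 0.14 in size. Fth1 in TAD1m against vector was 0.0029 on the compared groups only. In sgPcyt2 against sgPcyt2+cDNA on doxycycline, Gpx4 was 0.00234 without the filter and Tfrc 0.00855 without the filter and 0.000606 on the compared groups only. Leaving out 1 library at a time gave these ranges of the log2 change. In TAD2m against p53WT they were -0.0405 to 0.0618 for Acsl4, -0.0135 to 0.216 for Aifm2 and -0.00216 to 0.0594 for Lpcat3. In sgPcyt2 against sgPcyt2+cDNA on doxycycline they were -0.0595 to 0.0615 for Acsl4, -0.195 to 0.0632 for Aifm2 and -0.049 to 0.0103 for Tfrc, and off doxycycline -0.0118 to 0.0845 for Ftl1 and -0.078 to 0.145 for Slc40a1. For Fth1 they were -0.128 to 0.0312 in TAD12m and -0.00558 to 0.153 in TAD1m against p53WT, and -0.125 to 0.0329 in KPsh off against on doxycycline. For Ftl1 they were -0.0668 to 0.124 in TAD1m and -0.0721 to 0.119 in TAD2m against vector, and -0.0298 to 0.0754 in sgPcyt2 off against on doxycycline. In TAD12m against vector they were -0.0681 to 0.117 for Gpx4, -0.0821 to 0.16 for Ncoa4, -0.0192 to 0.288 for Sat1, -0.226 to 0.0748 for Slc40a1 and -0.123 to 0.027 for Tfrc. Slc40a1 had -0.0405 to 0.31 in p53WT and -0.281 to 0.022 in TAD2m against vector, and the interaction had -0.106 to 0.00109 for Gpx4 and -0.0691 to 0.0131 for Sat1.

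Over all genes, DESeq2 called 2236 where edgeR called 3759 for the interaction, 2862 against 4944 in sgPcyt2 against sgPcyt2+cDNA off doxycycline, and 1433 against 2746 on it, where leaving out sgPcyt2+cDNA on-dox replicate 2 gave 1680. TAD12m against vector had 580 calls, 160 on the compared groups only, and 352 or 382 without vector replicate 1 or 2. TAD2m against p53WT had 43, with 107 without the filter, 99 on the compared groups only and 13 to 23 when 1 library was left out. Upper-quartile scaling added Acsl4 and Ftl1 to the calls of sgPcyt2 off against on doxycycline (adjusted p = 0.00211 and 0.00265). Other calls gained when 1 library was left out were Fth1 in p53WT against vector without p53WT replicate 1 (-0.18, adjusted p = 0.0298), Ncoa4 in p53WT against vector without vector replicate 1 (0.29, 0.0326), Ncoa4 in TAD12m against p53WT without TAD12m replicate 1 (-0.28, 0.0165) and Gpx4 in sgPcyt2 against sgPcyt2+cDNA off doxycycline without sgPcyt2 off-dox replicate 2 (-0.11, 0.0293).

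Same-numbered replicates did not deviate together in a consistent direction (correlations from -0.455 to 0.618, all 3 below 0 in KPsh cells). In KPnull cells the correlation was 0.618 for TAD12m with vector, -0.359 for p53WT and -0.353 for TAD2m with vector, and -0.455 for TAD12m with p53WT. KPnull replicates thus shared part of their deviations, with the same numbers together in some pairs of groups and opposed in others. The source of this was not tested. With the replicate block, Ncoa4 in p53WT against vector gained a call (adjusted p = 0.0387) for a count of 7 members where it was 6, and no other member call changed. A crossed block, chosen after seeing the data, called 8511 genes in p53WT and 8256 in TAD2m against vector, 8567 in TAD12m against p53WT and 11361 in sgPcyt2 off against on doxycycline. Of the members it called 8 in p53WT against vector, where it was 6, adding Ftl1 (adjusted p = 0.0299) and Ncoa4 (0.027). In the other 3 comparisons the member counts were those of the main fit, 8, 6 and 8. Precision was lowest for Slc40a1 in KPnull cells, at 8.15 to 13.3 CPM, with an SE of 0.15 to 0.16.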

Other observations

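These values were chosen after they were seen. The third KPsh library off doxycycline had the lowest Tfrc and Acsl4 of its group (360 and 124 CPM) and the highest Gpx4, Aifm2 and Fth1 (411, 27.7 and 1348 CPM). The ratio of Ftl1 to Fth1, each per kilobase, averaged 2.29 to 3.14 in the KPnull groups, 4.97 and 5.73 in KPsh cells off and on doxycycline, and 4.33 to 6.19 in the Pcyt2 set. The level of this ratio rests on the kept transcript lengths of 936 and 2057 bases.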
